A study of Homo sapiens with 25 samples.

Results

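The 10 genes described here encode ligands of the ERBB receptor family. EGF, TGFA, AREG, EREG, BTC, HBEGF and EPGN encode ligands of the epidermal growth factor receptor, and NRG1, NRG2 and NRG4 encode neuregulins. They were chosen by name, as 10 of the 19970 protein-coding genes of GENCODE 44 on chromosomes 1 to 22 and X, and were followed through promoter peaks, nearby H3K27ac peaks and broad chromatin domains. The choice was made with these values known, so the values below are a description with no test.

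The study profiled chromatin by immunoprecipitation and sequencing (ChIP-seq) in MDA-MB-231, a human triple-negative breast cancer cell line. PML organises the nuclear bodies that bear its name, and it was silenced with a lentiviral short hairpin RNA in the PML knockdown cells, which were set against control cells. The sources used here do not say whether the control cells carried a hairpin of their own. All cells were fixed with disuccinimidyl glutarate and formaldehyde. The 25 libraries comprised 2 of each of lamin B1 (LMNB1), H3K9me3, H3K27me3, H3K4me3 and H3K27ac in PML knockdown cells and as many in control cells, 1 input for each condition, and 3 of PML with no condition in their titles.

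The files used here were 9 lists with a single list per target and condition: 4 peak lists (H3K4me3 and H3K27ac) and 5 domain lists (PML, LMNB1 and H3K9me3). Those of H3K27me3, 4 libraries, were not analysed here. Lists hold no value per replicate and their read depth is unknown; hence no difference between the conditions has a replicate check, and a missing peak was below the authors' threshold and is not shown to be absent. Each fold enrichment is the authors' value for a peak summit over its local background. Folds cannot be set on a common scale between lists: peaks present in both lists had median folds of 20.8 in the knockdown list, against 10.5 in the control list for H3K4me3, and of 7.88 and 5.98 in those lists for H3K27ac. Promoter peaks at PML itself do not measure the hairpin's effect, and none of the PML libraries carries a knockdown label, so the knockdown could not be checked. As a check of the line, 6 of 6 mesenchymal and basal markers had promoter peaks in every peak list, including VIM and CD44. Of 7 luminal or epithelial markers, 5 had H3K4me3 in the knockdown list, against 4 in the control list. For H3K27ac, 1 (EPCAM) had it in the knockdown list, against 0 in the control list. GATA3 and CDH1 had no peak. Over all genes, 63.7% had H3K4me3 in the knockdown list, against 61.8% in the control list, and 53.7% and 50.8% had H3K27ac. H3K4me3 alone thus did not set the luminal or epithelial markers apart. Of the 5 markers of blood, endothelial and liver cells, 0 had a promoter peak.

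ERBB ligands are made as membrane-bound precursors, and most are released by metalloproteinases such as ADAM17 and ADAM10. Ligand binding pairs the receptors EGFR, ERBB2, ERBB3 and ERBB4, which then signal through the RAS and MAP kinase pathway, and several ligand genes are in turn induced by that signal. H3K4me3 is found at active and poised promoters, and H3K27ac at active promoters and enhancers. EGFR is commonly expressed in basal breast cancer lines, and tumour cells can produce ligands that act on their own receptors.

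In hg38, EPGN (chromosome 4, 74308470 to 74316789), EREG (74365145 to 74388749) and AREG (74445136 to 74455005) lie on the plus strand and BTC (74744759 to 74794523) on the minus strand of the same region, with EGF (109912883 to 110013766, plus strand) farther along chromosome 4. NRG2 (139846779 to 140043299) and HBEGF (140332843 to 140346603) lie on the minus strand of chromosome 5. TGFA (70447284 to 70554193) is on the minus strand of chromosome 2, NRG1 (31639222 to 32855666) on the plus strand of chromosome 8 and NRG4 (75935969 to 76059795) on the minus strand of chromosome 15. A cluster on chromosome 4 thus holds 4 of the genes, a pair lies less than 1 Mb apart on chromosome 5, and the other 4 stand alone.

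At the promoters, taken as 1 kb on either side of the canonical start, 8 of the 10 ligand genes had an H3K4me3 peak in the knockdown list and 7 did in the control list. Over all genes these shares were 63.7% in the knockdown list, against 61.8% in the control list. For H3K27ac the counts were again 8 of 10 in the knockdown list and 7 of 10 in the control list, beside 53.7% and 50.8% of all genes in those lists. TGFA, AREG, EREG, HBEGF, NRG1 and NRG2 carried both marks in both lists, as did 49.1% of genes. Taken alone, H3K4me3 was present in both lists at 7 of the 10, beside 61.7% of all genes, and H3K27ac likewise at 7 of the 10, beside 50.1%. EPGN had no promoter peak in any list, like 35.2% of genes.

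**Figure D1:**
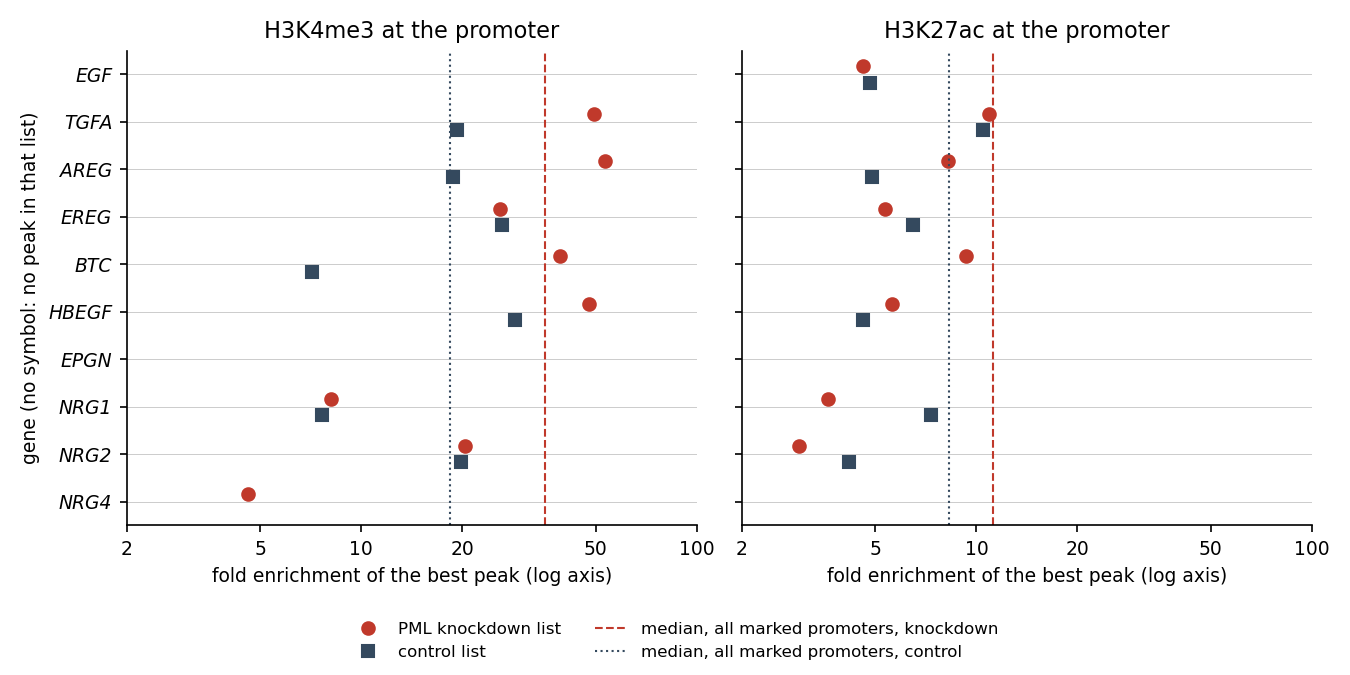
Fold enrichment of the best promoter peak (log axis) of each ligand gene for H3K4me3 (left) and H3K27ac (right), with circles for the PML knockdown list, squares for the control list, and vertical lines at the median of all marked promoters in each list (H3K4me3 35.3 in knockdown and 18.4 in control, H3K27ac 11.2 and 8.26). AREG, TGFA, HBEGF and BTC lie right of the knockdown H3K4me3 median, EPGN has no symbol, and every H3K27ac symbol except TGFA in the control list lies left of its own list's median.

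AREG encodes amphiregulin, a ligand of EGFR. Its H3K4me3 promoter peak had a fold enrichment of 53.4 in the knockdown list, against 18.7 in the control list, and its H3K27ac peak had 8.23 in the knockdown list, against 4.89 in the control list. In the knockdown list AREG stood above 76.1% of all promoters with an H3K4me3 peak, the highest place of the 10 genes there. In the control list it stood above 51.4%, and HBEGF had the highest place there, above 79.4%. TGFA encodes transforming growth factor alpha, another EGFR ligand. A peak covering the start and another upstream of it were present for both marks in both lists, and the better of the H3K4me3 peaks had a fold of 49.6 in the knockdown list, where it covered the start, and of 19.3 in the control list, where it lay upstream. The H3K27ac fold at TGFA was 10.9 in the knockdown list, against 10.5 in the control list, the highest of the ligand promoters in both lists. HBEGF encodes heparin-binding EGF, which binds EGFR and ERBB4. It had H3K4me3 folds of 47.8 in the knockdown list, against 28.7 in the control list, with H3K27ac folds of 5.62 and 4.60 in those lists. In the knockdown list a single H3K4me3 peak of 3158 bp spanned the HBEGF start, where the control list had separate peaks of 1916 and 559 bp. AREG showed the reverse, with a single peak of 2203 bp in the control list and separate peaks of 1616 and 328 bp in the knockdown list.

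EREG encodes epiregulin, a ligand of EGFR and ERBB4. Its H3K4me3 fold was 26.0 in the knockdown list, against 26.3 in the control list, above 34.3% and 73.9% of marked promoters in those lists. Its H3K27ac fold was 5.33 in the knockdown list, against 6.45 in the control list. BTC encodes betacellulin, which binds the same receptors. The H3K4me3 peak at BTC had a fold of 39.1 in the knockdown list, above 56.4% of marked promoters, and of 7.14 in the control list, above 11.5% of them. These places come from lists of different length and so show no change by themselves. BTC also had an H3K27ac promoter peak in the knockdown list, with a fold of 9.33 and a −log10 q of 18.0, and none in the control list. Promoters with H3K27ac in the knockdown list only made up 3.24% of all genes, and those with it in the control list only made up 0.666%. BTC was the only ligand gene of that kind, and 0 of the 10 were in the control list only.

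EGF had an H3K27ac promoter peak with a fold of 4.59 in the knockdown list, against 4.81 in the control list, and no H3K4me3 peak in either. H3K27ac in both lists with H3K4me3 in neither was seen at 0.651% of genes. These were weak and narrow peaks, 449 bp wide in the knockdown list, against 342 bp in the control list, with −log10 q of 4.78 and 6.31 in those lists. Keeping peaks with a −log10 q of at least 5 removes the one in the knockdown list and leaves the one in the control list.

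Among the neuregulins, NRG1 and NRG2 encode ligands of ERBB3 and ERBB4, and NRG4 encodes a ligand of ERBB4. NRG1 had H3K4me3 folds of 8.11 in the knockdown list, against 7.63 in the control list, above 6.72% and 12.9% of marked promoters in those lists. Its peak was low and broad, 4447 bp in the knockdown list, against 4345 bp in the control list, wider than 97.3% and 98.3% of the peaks of those lists. The H3K27ac fold at NRG1 was 3.62 in the knockdown list, against 7.33 in the control list. NRG2 had H3K4me3 folds of 20.4 in the knockdown list, against 19.8 in the control list, and H3K27ac folds of 2.96 and 4.18 in those lists. Within the knockdown list both genes lay below the median H3K4me3 fold of all marked promoters, which was 35.3, and within the control list NRG1 lay below the median of 18.4 and NRG2 above it.

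NRG4 had an H3K4me3 peak of 446 bp in the knockdown list, with a fold of 4.60 and a −log10 q of 4.85, and none in the control list. Promoters with H3K4me3 in the knockdown list only made up 1.79% of genes, and those with it in the control list only 0.0951%. The NRG4 peak stood above 2.28% of marked promoters, and it is lost when peaks need a −log10 q of at least 5 or when the lists are cut to equal size. NRG4 had no H3K27ac promoter peak in either list.

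Alternative starts bear on both genes called in the knockdown list only. NRG4 has another annotated start 47.4 kb upstream, within 1 kb of the start of TMEM266, and H3K4me3 there had a fold of 19.6 in the knockdown list, against 12.8 in the control list. BTC has an internal start 24.4 kb downstream of the canonical start, and an H3K27ac peak with a fold of 3.98 lay within 1 kb of it in the control list only. With any protein-coding start allowed, NRG4 and BTC counted as marked in both lists, BTC by peaks at different starts. The other starts of NRG1, from 909 kb upstream to 173 kb downstream of the marked start, had no peak of either mark. The internal starts of TGFA and NRG2 had none either.

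The sequence around the starts divided the ligand genes evenly. The CpG ratio, observed over expected from base content over the 250 bases before the start and the first 50 bases from it, had a median of 0.596 over the 10 genes and 0.776 over all genes. It was at or above 0.6 at TGFA, AREG, HBEGF, NRG1 and NRG2 and below 0.6 at EGF, EREG, BTC, EPGN and NRG4. Among all genes at or above 0.6, 84.6% had an H3K4me3 promoter peak in the knockdown list, against 82.7% in the control list, and among those below 0.6 the shares were 20.5% and 18.6%. All 5 CpG-rich ligand promoters had H3K4me3 in both lists. Of the 5 CpG-poor ones, EREG at 0.486 and BTC at 0.416 had it in both lists, NRG4 at 0.420 in the knockdown list only, and EGF at 0.248 and EPGN at 0.376 in neither.

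**Figure D2:**
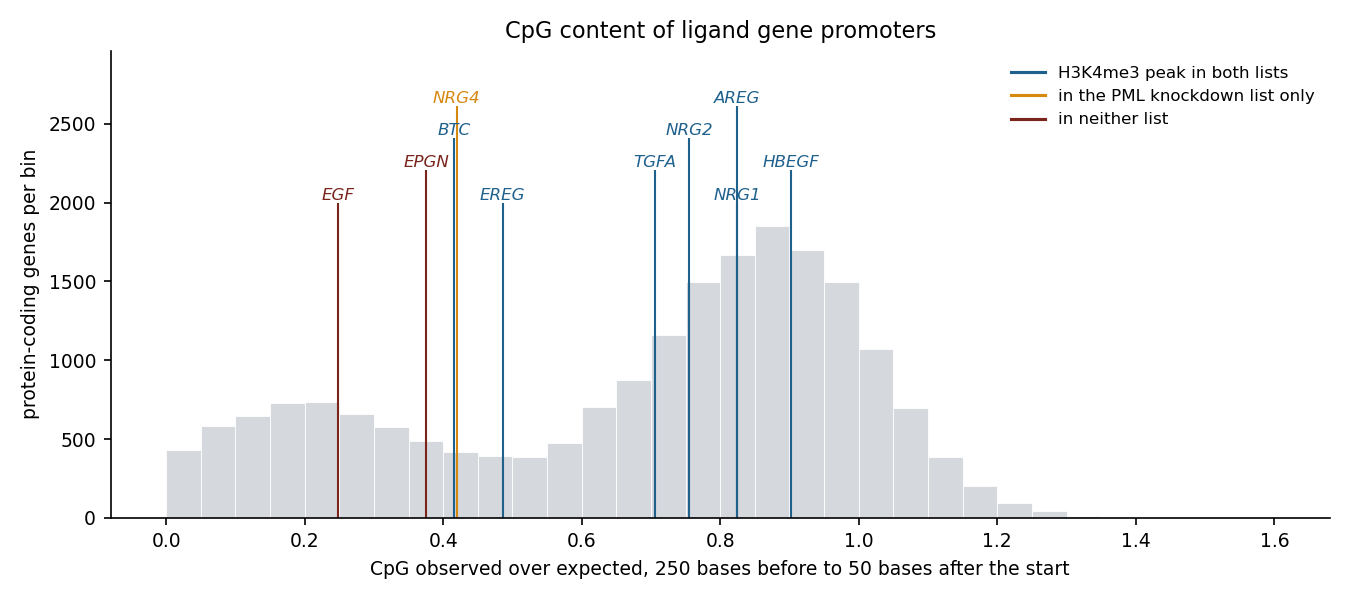
Number of protein-coding genes (vertical axis) per bin of CpG observed over expected around the start (horizontal axis), with lines for the 10 ligand genes coloured by the lists that hold an H3K4me3 promoter peak. EGF at 0.248 and EPGN at 0.376 have none, EGF in the CpG-poor peak of the distribution and EPGN on the slope above that peak. EREG at 0.486 and BTC at 0.416 are marked in both lists although their ratio is below 0.6.

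The RefSeq (GRCh38.p14) promoter sequences available here covered 9 of the 10 genes, with none used for NRG1. The 5 CpG-poor promoters and AREG, as the CpG-rich member of the same chromosome 4 cluster, are printed so that these differences can be read in the bases. Capitals mark matches on either strand to AP-1 (TGANTCA), CRE (TGACGTCA), TATA box (TATAAA) and GC box (GGGCGG) letters, and each sequence runs 5′ to 3′ on the gene's strand.
AREG promoter, chr4:74444886-74445185, plus strand: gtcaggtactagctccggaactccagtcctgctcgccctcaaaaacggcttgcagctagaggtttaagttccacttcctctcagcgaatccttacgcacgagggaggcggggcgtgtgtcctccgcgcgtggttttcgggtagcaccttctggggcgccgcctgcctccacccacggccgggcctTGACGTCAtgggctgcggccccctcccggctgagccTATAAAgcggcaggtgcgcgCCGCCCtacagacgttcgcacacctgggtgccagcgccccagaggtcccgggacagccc
EREG promoter, chr4:74364895-74365194, plus strand: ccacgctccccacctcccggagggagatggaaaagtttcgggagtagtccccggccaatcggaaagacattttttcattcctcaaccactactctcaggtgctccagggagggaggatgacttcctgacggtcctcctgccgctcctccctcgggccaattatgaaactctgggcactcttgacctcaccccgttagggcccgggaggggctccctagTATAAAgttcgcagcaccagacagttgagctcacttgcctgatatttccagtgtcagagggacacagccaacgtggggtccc
BTC promoter, chr4:74794474-74794773, minus strand: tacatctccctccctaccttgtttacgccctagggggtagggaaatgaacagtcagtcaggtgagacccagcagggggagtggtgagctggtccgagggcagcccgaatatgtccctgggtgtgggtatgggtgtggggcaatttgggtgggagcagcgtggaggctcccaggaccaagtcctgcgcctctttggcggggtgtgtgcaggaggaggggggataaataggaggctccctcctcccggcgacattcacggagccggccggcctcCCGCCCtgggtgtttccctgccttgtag
NRG4 promoter, chr15:76012375-76012674, minus strand: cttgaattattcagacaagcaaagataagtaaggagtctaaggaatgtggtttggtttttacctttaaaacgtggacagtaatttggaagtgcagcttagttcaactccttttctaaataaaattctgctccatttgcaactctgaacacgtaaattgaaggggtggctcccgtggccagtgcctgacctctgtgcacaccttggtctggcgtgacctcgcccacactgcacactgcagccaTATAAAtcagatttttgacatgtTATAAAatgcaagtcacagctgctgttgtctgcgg
EGF promoter, chr4:109912633-109912932, plus strand: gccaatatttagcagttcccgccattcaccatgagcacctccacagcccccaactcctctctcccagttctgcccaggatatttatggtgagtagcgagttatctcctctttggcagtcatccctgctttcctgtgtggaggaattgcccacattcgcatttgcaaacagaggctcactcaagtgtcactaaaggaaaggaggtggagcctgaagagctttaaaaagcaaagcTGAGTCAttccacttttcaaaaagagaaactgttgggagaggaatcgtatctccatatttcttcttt
EPGN promoter, chr4:74308220-74308519, plus strand: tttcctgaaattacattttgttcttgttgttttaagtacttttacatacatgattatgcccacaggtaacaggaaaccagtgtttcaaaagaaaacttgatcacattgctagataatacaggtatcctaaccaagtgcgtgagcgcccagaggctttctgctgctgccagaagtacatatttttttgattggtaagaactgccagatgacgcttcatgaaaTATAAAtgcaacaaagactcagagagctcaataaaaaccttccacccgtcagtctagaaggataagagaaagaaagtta

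In AREG the CRE letters began 65 bases and the TATA letters 29 bases before the start. EREG had TATA letters beginning 32 bases before the start, and EPGN had them 29 bases before it. TATA letters are found in 11.5% and CRE letters in 1.85% of the 34961 RefSeq promoters of the same length. EPGN was unmarked although it holds the same letters at the same distance as AREG, so the letters did not separate marked from unmarked genes. EGF held AP-1 letters beginning 17 bases before the start, as did 7.68% of promoters anywhere in the window. NRG4 held TATA letters at 8 bases before and 15 bases after the start. At the canonical starts, GC box letters, found in 45.0% of promoters, occurred 5 times in the HBEGF promoter and 4 times in the TGFA promoter. They occurred once each in the AREG, NRG2 and BTC promoters. These began 9 bases before the start in AREG, 22 bases before it in NRG2 and 22 bases after it in BTC. A further RefSeq promoter of TGFA, 380 bp downstream, held none of the 4 kinds of letters. A further one of NRG2, 138828 bp downstream, held 1 GC box. A match describes letters in this window and says nothing on binding of a factor.

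Within 50 kb of the starts, the ligand genes differed widely in H3K27ac. HBEGF had 9 peaks in the knockdown list, against 9 in the control list, TGFA had 7 and 6 in those lists, and AREG had 5 in each. EREG had 3 peaks in the knockdown list, against 5 in the control list, NRG2 had 3 in each, EPGN had 2 in the knockdown list, against 3 in the control list, and NRG1 had 2 in each. EGF and BTC had 1 in each list, and NRG4 had 0 in both. The median over all genes was 3 in the knockdown list, against 2 in the control list, and at least 1 peak was found for 83.7% and 82.0% of genes in those lists. HBEGF had more peaks than 96.4% of genes in the knockdown list, against 96.6% in the control list, and TGFA more than 89.5% and 85.3%. TGFA was the only ligand gene with more peaks in the knockdown list, as were 25.6% of genes, and EREG and EPGN had fewer, as did 17.0%. The other 7 had as many in both lists, like 57.4% of genes. With only peaks of a −log10 q of at least 5 kept, this balance turned, with more peaks in the knockdown list at 5 ligand genes and fewer at 3. The shares over all genes were not computed at that cut, so the turn is not shown to be particular to the ligand genes.

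**Figure D3:**
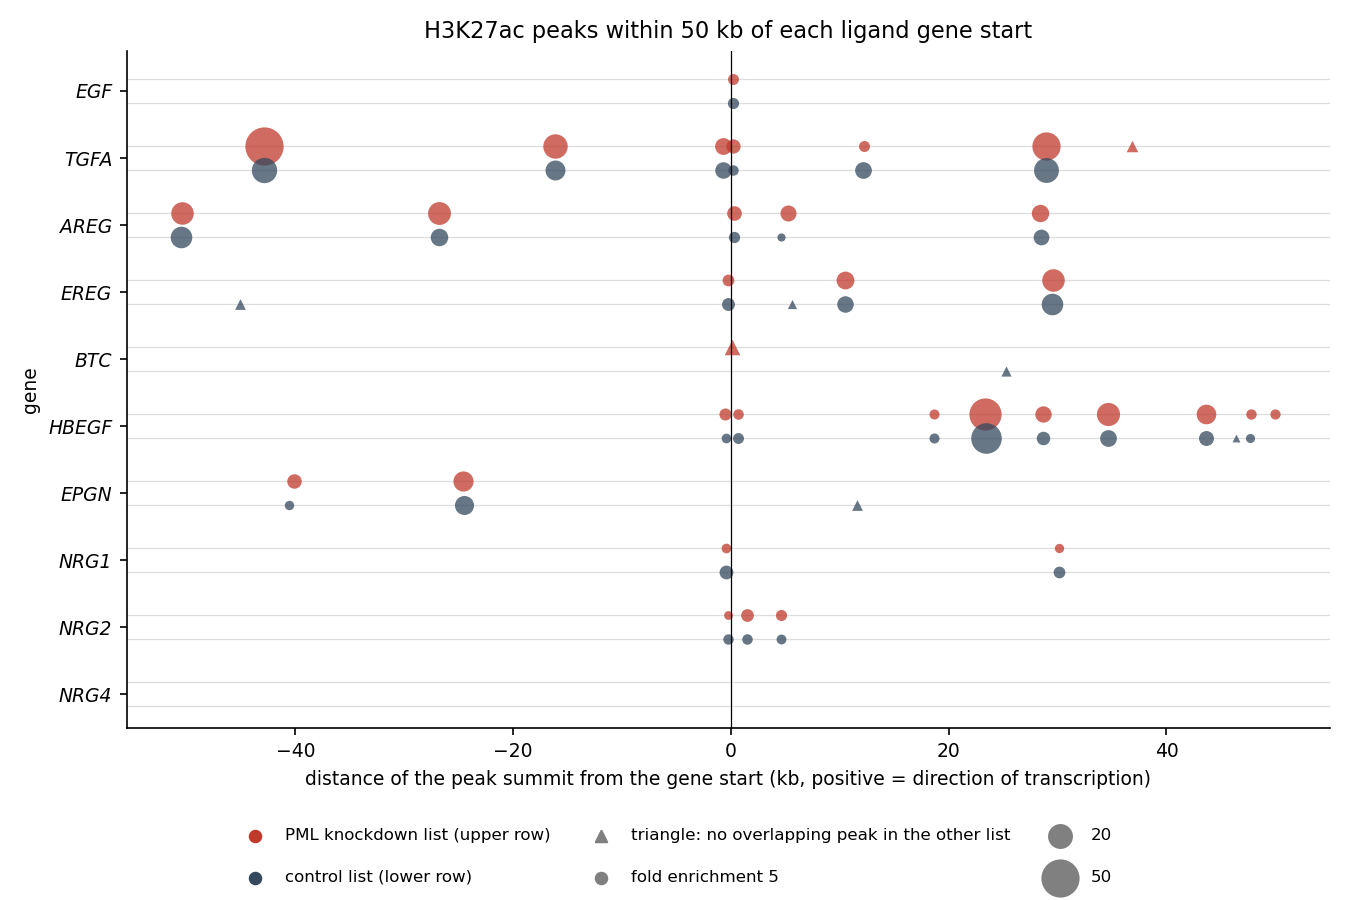
H3K27ac peaks within 50 kb of each ligand gene start, placed by the distance of the summit from the start in the direction of transcription (kb), with the PML knockdown list in the upper and the control list in the lower row of each gene. Symbol area is proportional to fold enrichment and triangles have no overlapping peak in the other list. The largest symbols lie 42.9 kb upstream of TGFA and 23.4 kb downstream of the HBEGF start, and the NRG4 rows are empty.

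Several of the strongest sites lay away from the promoters. The strongest was 42.9 kb upstream of TGFA in intergenic DNA, at chr2:70595623-70598030 in the knockdown list, with a fold of 56.1 in the knockdown list, against 24.7 in the control list. By fold it was in the top 0.371% of the knockdown list and the top 3.27% of the control list. A site 23.4 kb downstream of the HBEGF start, also intergenic, had 39.8 in the knockdown list, against 35.9 in the control list, in the top 1.79% and 0.792% of those lists. An intronic TGFA site 29.0 kb downstream of its start had 30.6 in the knockdown list, against 23.8 in the control list, and a site 16.1 kb upstream of TGFA had 22.9 and 15.3 in those lists. These 4 sites were present in both lists, and each exceeded the promoter H3K27ac peak of its gene within the same list.

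Of the 6 ligand genes with an H3K27ac peak both at the promoter and over 1 kb from every canonical protein-coding start within 50 kb, 5 had a stronger peak away from it in the knockdown list, against 5 in the control list. Among all genes with both, this held for 43.6% in the knockdown list, against 45.3% in the control list. The 5 genes were TGFA, AREG, EREG, HBEGF and NRG2, and AREG and EREG share a site. NRG1 was the exception, with 3.31 away from the promoter and 3.62 at it in the knockdown list, and 5.29 and 7.33 in the control list. At NRG2 the margin in the control list was small, 4.25 away from the promoter against 4.18 at it. EPGN, unmarked at its promoter, had a peak 24.6 kb upstream in an intron of MTHFD2L with a fold of 15.6 in the knockdown list, against 14.0 in the control list.

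The windows held 32 distinct H3K27ac peaks in the knockdown list, against 33 in the control list. Of these, 2 (6.25%) of the knockdown list and 4 (12.1%) of the control list had no counterpart in the other list, beside 15.5% and 8.41% of all peaks of those lists. The knockdown list had the BTC promoter peak, with a fold of 9.33, and a TGFA intronic peak 36.8 kb downstream of the start, with 5.10. The control list had the internal BTC peak, with a fold of 3.98, a peak in an EREG intron 5.60 kb downstream of the start, with 3.25, a peak between EPGN and EREG 11.6 kb downstream of the EPGN start, with 4.44, and a peak in a PFDN1 intron 46.4 kb downstream of the HBEGF start, with 2.39. Peaks of the control list without a counterpart thus all had a fold of 4.44 or less, under the median of 5.54 over that list. Of those of the knockdown list, the TGFA peak was under and the BTC peak above that list's median of 6.68. With a −log10 q of at least 5 required in both lists, the balance turned. There were 28 distinct peaks left in the knockdown list, 6 of them without a counterpart, against 25 in the control list, 3 of them without one. Some of these have a counterpart that fell below the cut. The AREG peak 5.27 kb downstream had a −log10 q of 20.3 in the knockdown list, against 3.72 in the control list. The EGF promoter peak went the other way, with 4.78 and 6.31. Shares over all peaks were not computed at that cut.

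H3K4me3 was also found at some of these sites. Of the H3K27ac peaks in the windows that lay over 1 kb from every canonical protein-coding start, 10 of 21 overlapped an H3K4me3 peak in the knockdown list and 7 of 23 did in the control list, where the 23 include the peak at the internal BTC start. Over all such peaks of the genome the shares were 35.4% in the knockdown list, against 21.2% in the control list. Of the 20 that were present in both H3K27ac lists, 3 overlapped H3K4me3 in the knockdown list only, beside 17.6% of all such peaks. They were the TGFA site at 42.9 kb, with an H3K4me3 fold of 5.76 in the knockdown list, the AREG site 26.8 kb upstream of its start, with 6.09, and the HBEGF site 34.6 kb downstream of its start, with 5.33. The knockdown H3K4me3 list was also the longer, with 27760 peaks against 22211 in the control list, and the part of list length in these calls was not tested.

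The windows of 201 bases around the knockdown summits of 3 of these sites are printed on the plus strand of hg38: the TGFA site as the strongest, the AREG site for its H3K4me3, and the EPGN site as the strongest peak near an unmarked promoter, with AP-1 letters in capitals.
TGFA distal site, chr2:70596590-70596790: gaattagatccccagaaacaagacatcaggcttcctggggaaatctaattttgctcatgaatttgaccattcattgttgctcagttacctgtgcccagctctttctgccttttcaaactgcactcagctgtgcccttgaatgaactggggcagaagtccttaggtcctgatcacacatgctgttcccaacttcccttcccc
AREG distal site, chr4:74418192-74418392: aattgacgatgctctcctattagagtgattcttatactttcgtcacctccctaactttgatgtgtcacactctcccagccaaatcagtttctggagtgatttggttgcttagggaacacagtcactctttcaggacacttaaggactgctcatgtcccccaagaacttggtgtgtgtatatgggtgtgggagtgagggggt
EPGN distal site, chr4:74283803-74284003: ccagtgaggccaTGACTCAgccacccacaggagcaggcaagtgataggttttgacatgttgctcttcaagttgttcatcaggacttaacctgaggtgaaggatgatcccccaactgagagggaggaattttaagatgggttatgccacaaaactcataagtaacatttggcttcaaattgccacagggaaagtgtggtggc

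AP-1 letters occurred in 2 of the 21 such windows, both near EPGN, and in 6.96% of all H3K27ac summits away from promoters in the knockdown list. The letters GGAATG, which TEAD factors can bind, also occurred in 2 of 21, at the TGFA site 16.1 kb upstream and at an NRG2 intronic site, beside 12.5% of all such summits. The windows around the strongest TGFA and HBEGF summits held neither.

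EPGN, EREG and AREG lie in that order in the same direction on chromosome 4, with starts 56.7 kb and 80.0 kb apart, and BTC lies 349 kb beyond AREG in the opposite direction. From 60 kb before the EPGN start to 60 kb beyond the BTC start there were 20 H3K27ac peaks in the knockdown list, against 22 in the control list, and 10 H3K4me3 peaks in the knockdown list, against 6 in the control list. A site between EREG and AREG, 29.5 kb downstream of the EREG start and 50.4 kb upstream of AREG, had an H3K27ac fold of 19.5 in the knockdown list, against 17.9 in the control list. The AREG site 26.8 kb upstream of its start had 20.1 in the knockdown list, against 11.8 in the control list. Between the windows of AREG and BTC, 10 H3K27ac peaks were found in each list, the strongest 317 kb from the EPGN start with 27.9 in the knockdown list, against 25.5 in the control list. Neither list had an H3K27ac peak between 197 and 310 kb from the EPGN start, and the knockdown list had none between 375 and 486 kb, the BTC promoter.

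**Figure D4:**
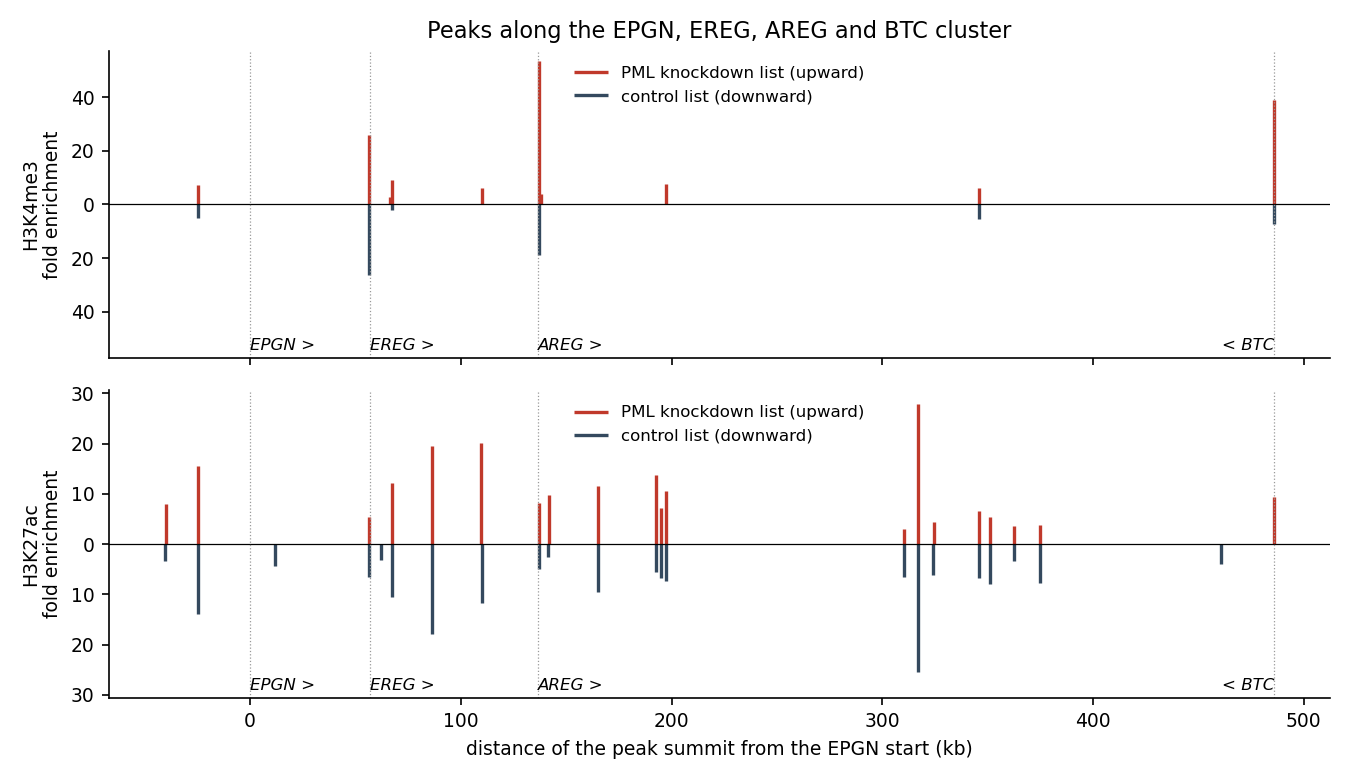
Fold enrichment of H3K4me3 (top) and H3K27ac (bottom) peaks by distance from the EPGN start (kb), with the PML knockdown list drawn upward and the control list downward, and dotted lines at the gene starts with arrowheads for direction. H3K4me3 is highest at EREG, AREG and BTC and missing at EPGN, and the tallest H3K27ac peak lies 317 kb from the EPGN start, between AREG and BTC.

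NRG2 and HBEGF lie 303 kb apart on chromosome 5. Of the 4 protein-coding genes that start between them, PURA, CYSTM1 and PFDN1 had both marks in both lists and IGIP had none. PFDN1 starts within the HBEGF window, and its own promoter peak is the H3K27ac peak 43.7 kb downstream of the HBEGF start. Beyond HBEGF, SLC4A9 was unmarked, and ANKHD1 and its read-through ANKHD1-EIF4EBP3, which share a peak, had H3K4me3 folds of 43.7 in the knockdown list, against 21.6 in the control list. At these neighbours the H3K27ac folds ran from 4.67 to 14.8 in the knockdown list and from 4.36 to 8.58 in the control list, so the HBEGF promoter was toward the lower end of its neighbourhood.

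None of the ligand genes lay in a broad domain. The start was outside the domains of every list for 10 of 10 genes, and 0% of each gene body was covered by any of them. Of all genes, 13.1% started in a PML domain, 11.0% in an LMNB1 domain of the knockdown list and 12.4% of the control list, and 8.60% and 10.0% in an H3K9me3 domain of those lists, while 78.5% started in none. Starts in a domain of a single condition, of which the ligand genes had 0, made up 0.661% of all genes for LMNB1 in the knockdown list only and 2.05% in the control list only, and 3.41% and 4.80% for H3K9me3 in those lists only. The nearest PML domain was between 2.90 Mb (TGFA) and 22.3 Mb (EPGN) away, with a median of 9.86 Mb over the 10 genes. Over all genes on chromosomes with a PML domain the median was 1.27 Mb, which leaves out 859 genes on chromosomes without one. For LMNB1 the median distance of the ligand genes was 10.7 Mb in the knockdown list, against 5.96 Mb in the control list, against 1.73 and 1.48 Mb over all genes in those lists. For H3K9me3 it was 26.2 Mb in the knockdown list, against 6.46 Mb in the control list, against 2.04 and 1.28 Mb.

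**Figure D5:**
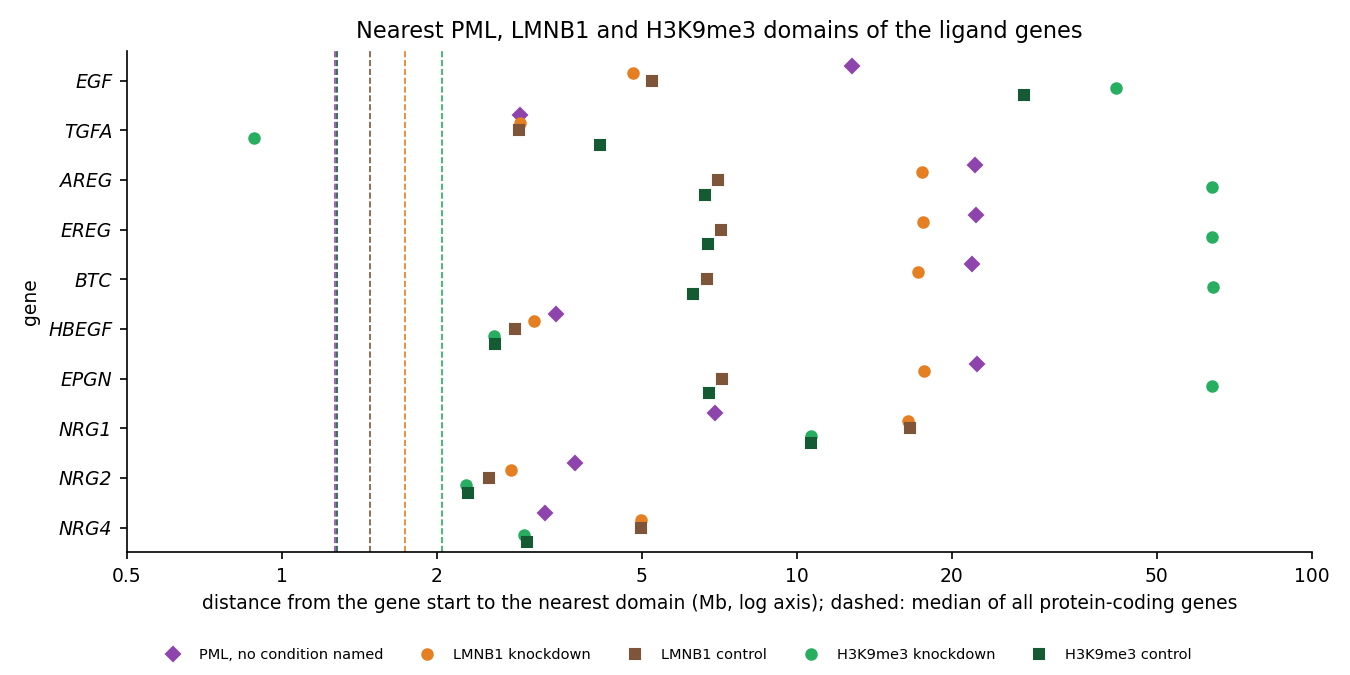
Distance from each ligand gene start to the nearest domain of the 5 lists (Mb, log axis), with symbols for the lists. Dashed lines mark the median over all protein-coding genes in each list, for PML without the 859 genes on chromosomes that hold no PML domain. Every symbol except that of TGFA in the knockdown H3K9me3 list (0.881 Mb) lies to the right of its list's dashed line, and EPGN, EREG, AREG and BTC move together because they share a cluster.

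These distances rest on few independent places, since 5 of the 10 genes lie on chromosome 4 and 4 of those in a single cluster. Chromosome 4 itself was sparsely covered: PML domains took up 13.5% of it against 32.0% of all chromosomes, and H3K9me3 domains took up 4.27% in the knockdown list, against 6.17% in the control list, against 11.9% and 20.7% of all chromosomes. The domains of the knockdown lists nearest to the cluster were an LMNB1 domain from 91982001 to 92840000 and an H3K9me3 domain from 9380001 to 10395000 on chromosome 4. In the control lists they were an LMNB1 domain from 81481001 to 82263000 and an H3K9me3 domain from 81075001 to 82248000, both closer. AREG therefore lay 17.5 Mb from LMNB1 in the knockdown list, against 7.04 Mb in the control list, and 64.1 Mb from H3K9me3 in the knockdown list, against 6.63 Mb in the control list. TGFA went the other way, 0.881 Mb from an H3K9me3 domain of the knockdown list and 4.15 Mb from one of the control list. At HBEGF, NRG1, NRG2 and NRG4 the nearest H3K9me3 domain was at nearly the same distance in both lists, for example 10.6 Mb in the knockdown list, against 10.7 Mb in the control list at NRG1. The H3K9me3 list of the knockdown was shorter, 281 domains over 361 Mb against 430 domains over 629 Mb in the control list.

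Nearly all genes of the receptors and their pathway had H3K4me3. H3K27ac was present at 3 of the 4 receptor promoters in the knockdown list, against 1 in the control list. Of 40 genes that act with these ligands, 39 had an H3K4me3 promoter peak in the knockdown list, against 39 in the control list, and 36 and 35 had H3K27ac in those lists. Over all genes the shares were 63.7% and 61.8% for H3K4me3 and 53.7% and 50.8% for H3K27ac in those lists. EGFR, the receptor of most of these ligands, had H3K4me3 folds of 13.1 in the knockdown list, against 14.9 in the control list, with H3K27ac folds of 5.27 and 5.61. ERBB2, which binds no ligand itself, and ERBB3, a receptor of neuregulins with little kinase activity, had H3K4me3 in both lists and H3K27ac in the knockdown list only, with folds of 4.10 at ERBB2 and 3.76 at ERBB3, beside 3.24% of all genes. The ERBB2 call ended with a −log10 q of at least 5 and with any coding start allowed, and the ERBB3 call ended with promoters of 500 bp on either side. MAPK3, a MAP kinase, had H3K27ac in the control list only, with a fold of 7.15, beside 0.666% of all genes. ERBB4, a receptor of neuregulins, had H3K4me3 folds of 25.2 in the knockdown list, against 15.0 in the control list, no H3K27ac, and a start inside a PML domain and an LMNB1 domain of both lists.

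Of the 6 genes for release of the ligands, 5 had both marks in both lists, including ADAM17, with H3K4me3 folds of 53.6 in the knockdown list, against 21.3 in the control list. ADAM12, a metalloproteinase, had neither mark and started in an H3K9me3 domain of both lists. All 11 feedback inhibitors and all 9 early target genes had H3K4me3 in both lists, and H3K27ac was missing only at LRIG1 among them. Of these, SPRED1 and DUSP6, inhibitors of MAP kinase signalling, and JUN and PHLDA1, early target genes, started in a PML domain, DUSP6 and JUN in an LMNB1 domain of both lists as well. CCND1, the cyclin D1 gene, started in an H3K9me3 domain of the knockdown list only, as did 3.41% of genes. In all, 5 of the 40 pathway genes started in a PML domain, beside 13.1% of all genes.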

How the data were processed

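Values were used as deposited. The peak lists give for each peak a fold enrichment, a ratio, and −log10 p and q values in the deposited MACS2 layout, with an integer score that follows the q-value. The deposited domain lists give 1 score per domain with no unit stated, which was not used. BWA 0.7.12-r1039, Picard 1.104, MACS2 2.2.7.1, deepTools and hg38 are named, without roles, in the submitters' processing notes. The names of the deposited peaks show that replicates 1 and 2 were joined; for domains the sources used here do not say. The peak files mark conditions as pml and ct, read as PML knockdown and control, and domain files of LMNB1 and H3K9me3 with no condition mark were read as control; both readings are assumptions.

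Python 3.11.15, numpy 2.4.6, pandas 2.3.3 and matplotlib 3.10.9 were used, with GENCODE 44 canonical starts. Overlap was at least 1 bp and was checked on simulated lists and with bedtools 2.31.1. A promoter counted as marked in a single list when the other list had no peak in it and none that overlapped its peaks. Distal peaks lay over 1 kb from every canonical protein-coding start. Named genes were the 10 ligand genes, the 4 receptors, pathway genes in 1 list only or in a PML domain, and neighbours of clustered ligand genes within 100 kb. ADAM12, ADAM17, LRIG1, MTHFD2L and TMEM266 were named after their values were seen. Members, gene lists and alternatives were chosen with earlier results of these data known. No test was made, because each list is a single observation.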

Additional observations from a re-analysis of the deposited data

How the results depend on the processing

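No paired analysis was possible because each list joins its replicates and holds no value per sample, so leaving out a replicate was not possible either. Of the values answering a comparison, 111 stayed within 1.5 times of the reported value or at the same count under an alternative. The other 20 did not. Among the 111 are the domain counts, which could not have moved under some of the alternatives. Of the values of single genes, 230 stayed and 36 did not. For these, peak counts followed the same rule, but promoter folds had to be identical. Promoter folds whose peak was lost under an alternative were left out of these numbers. NRG4 as the 1 gene with H3K4me3 in the knockdown list only became 0 with a −log10 q of at least 5, with lists of equal size, and with any coding start. BTC as the 1 gene with H3K27ac in the knockdown list only became 0 with any coding start, and with a −log10 q of at least 5 there was 1 gene, EGF, with it in the control list only. ERBB2 and ERBB3, the 2 pathway genes with H3K27ac in the knockdown list only became 1 with promoters of 500 bp on either side (ERBB2), and with a −log10 q of at least 5 or any coding start (ERBB3).

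Windows of 20 kb held 17 distinct H3K27ac peaks in the knockdown list, against 18 in the control list, with 1 and 2 of them without a counterpart. Windows of 100 kb held 51 and 55, with 3 and 6 of them without a counterpart, and with more in the knockdown list at 2 genes and fewer at 5. A −log10 q of at least 5 gave 6 distinct peaks in the knockdown list only and 3 in the control list only. At that cut 5 genes had more peaks in the knockdown list and 3 had fewer, with no share over all genes computed. A reciprocal overlap of 50% gave 5 in the knockdown list only and 6 in the control list only, and leaving out promoters gave 1 and 4. The start of every ligand gene stayed outside all domains with domains of at least 500 kb and with domains joined within 100 kb. Neither setting could have placed a start in a domain, since the nearest domain of any list was 0.881 Mb away. Counting over the gene body repeats the 0% coverage given above. With windows of 401 bases, an alternative added after the data were seen, AP-1 letters occurred in 6 of 21, beside 25.2% of all such summits. The letters GGAATG also occurred in 6 of 21 there, beside 25.8%, so both counts depend on the window. Unknown depth and pooled lists limit each of these values, and the reading of the file marks as conditions cannot be checked here.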
